A study of Mus musculus with 20 samples.

Results

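The 9 genes described here encode the amino acid transporters Slc7a5, Slc3a2, Slc7a1, Slc7a2, Slc38a2, Slc38a3, Slc38a5, Slc6a6 and Slc1a5, chosen by name as transporters known from barrier endothelium, among 55376 genes in the count tables. All 9 have a row in both tables. Their transcripts were counted in bulk polyA RNA libraries, made from endothelial cells that had been sorted from mouse sciatic nerve. In the Tomato experiment, cells carried the R26-TomatoLSL reporter, which Cdh5(PAC)-CreERT2 switches on in cells that use the endothelial cadherin promoter. The groups were 7 dpi (5 libraries) and 14 dpi (4 libraries), taken 7 and 14 days after injury from the bridge, the region of new tissue that spans the lesion, and intact (5 libraries), taken from pooled, uninjured nerves of adults. In the Cherry experiment, all mice carried the Kdr-Cherry reporter, and cells came from the bridge at 7 dpi of mice written in the design text as Chd5::CreER; Plxnd1fl/fl, in which Plxnd1 is deleted in endothelium (KO, 3 libraries), or of control mice (WT, 3 libraries). The labels call every Tomato library Plxnd1 WT as well. Whether the WT controls carried the Cre or a floxed allele is not given in the sources used here. The design text names a bridge while the condition label names a crush, and the sources do not settle which injury was made. The sort kept reporter-positive cells without CD45, the pan-leukocyte marker. Nerves were pooled and no label ties a library to an animal, so a p-value here reflects library-to-library spread, some of which may be technical.

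Vessels of brain, retina and the inner compartment of peripheral nerve form a blood-tissue barrier, and nutrients cross it through carriers in the endothelial membrane. Slc7a5 (LAT1) is the light chain and Slc3a2 (4F2hc, the heavy chain of CD98) the heavy chain of an exchanger for leucine, phenylalanine, tryptophan and other large neutral amino acids, and Slc3a2 also pairs with other light chains. Slc7a1 (CAT1) and Slc7a2 (CAT2) carry arginine, lysine and ornithine. Slc38a2, Slc38a3 and Slc38a5 are sodium-coupled carriers of glutamine and other neutral amino acids, Slc1a5 (ASCT2) exchanges neutral amino acids including glutamine, and Slc6a6 is the taurine transporter.

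Libraries held 19.06 to 34.18 M counts (Tomato) and 19.25 to 33.79 M counts (Cherry). Levels are on a per-million scale (CPM) after TMM scaling, which corrects each library for its composition, within an experiment. All 10 endothelial markers examined were found in every library, none below 40.7 CPM. Their sums were 4803 to 12202 CPM in intact libraries, 6788 to 10319 CPM at 7 dpi and 5971 to 7923 CPM at 14 dpi. In Cherry libraries the sums were 10439 to 11538 CPM. Markers of other cells were also present in Tomato libraries. The summed level of 8 perineurial genes was 2660 to 5480 CPM in intact libraries, 334 to 1023 CPM at 7 dpi and 1322 to 2964 CPM at 14 dpi, against 91.9 to 135 CPM in all Cherry libraries. The summed level of 10 fibroblast genes was 9159 to 16870 CPM in intact libraries, 4464 to 19954 CPM at 7 dpi and 16331 to 36010 CPM at 14 dpi. In Cherry libraries it was 850.0 to 3306 CPM. Median fibroblast sums in intact, 7 dpi and 14 dpi libraries were 11189, 12515 and 30173 CPM. Median endothelial sums in the same groups were lower, at 9116, 8296 and 7408 CPM. Sums of chosen markers do not give shares of cells. In bulk RNA of this kind, fewer cells of a type and less RNA per cell cannot be told apart. The summed level of 4 Y-linked genes, carried by male cells only, was 40.1 to 240 CPM in intact libraries (median 118). It was 0 to 216 CPM at 7 dpi (median 0) and 0 to 268 CPM at 14 dpi (median 91.2). The Tomato groups thus differed in their mix of male and female RNA, and sex and injury are partly confounded.

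Levels of the 9 genes differed by orders of magnitude. Between genes they are compared as CPM per kilobase of exon. In intact nerve Slc3a2 was highest at 327 ± 104 CPM per kilobase (SD, n = 5), and its libraries did not overlap those of any other member. Slc38a2 at 82.3 ± 12.1 and Slc6a6 at 75.9 ± 11.1 CPM per kilobase came next and overlapped each other. Slc1a5 followed at 40.7 ± 2.08 CPM per kilobase. Then came Slc7a5 at 23.7 ± 4.71, Slc7a1 at 14.0 ± 3.47 and Slc7a2 at 13.3 ± 1.41 CPM per kilobase, in which neighbours overlapped. Slc38a3 at 0.226 ± 0.200 and Slc38a5 at 0.211 ± 0.329 CPM per kilobase were close to the limit of detection, so 7 of the 9 genes were readily measured in these libraries.

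The order changed at the lesion. Slc3a2 was still highest at 7 dpi at 115 ± 12.3 CPM per kilobase (n = 5), now overlapping Slc38a2 at 73.2 ± 23.1 CPM per kilobase. Slc1a5 at 47.9 ± 7.00 and Slc6a6 at 47.7 ± 8.74 CPM per kilobase stood next and overlapped. The LAT1 light chain and both arginine carriers lay an order of magnitude lower, with Slc7a2 at 4.06 ± 0.736, Slc7a1 at 3.61 ± 0.886 and Slc7a5 at 3.35 ± 1.02 CPM per kilobase and neighbours that overlapped. At 14 dpi (n = 4) the highest 4 were Slc3a2 at 135 ± 7.48, Slc38a2 at 63.2 ± 13.1, Slc1a5 at 46.0 ± 9.28 and Slc6a6 at 36.1 ± 8.34 CPM per kilobase, of which Slc3a2 stood apart and the others overlapped as neighbours. Slc7a5 at 5.82 ± 1.40 and Slc7a2 at 5.45 ± 0.465 CPM per kilobase overlapped, and Slc7a1 at 3.19 ± 0.310 CPM per kilobase lay below both. Slc38a3 and Slc38a5 remained lowest, at 0.627 ± 0.369 and 0.0899 ± 0.0899 CPM per kilobase at 7 dpi and 0.234 ± 0.134 and 0.109 ± 0.0853 CPM per kilobase at 14 dpi. In the Cherry libraries (n = 3 each) Slc3a2 was again highest, at 108 ± 6.21 CPM per kilobase in KO and 118 ± 4.53 in WT. Slc1a5 (58.7 ± 9.97 in KO, 58.9 ± 2.53 in WT), Slc38a2 (58.7 ± 9.70 in KO, 67.6 ± 8.12 in WT) and Slc6a6 (41.6 ± 3.38 in KO, 53.5 ± 10.4 in WT) formed the next tier on the same scale. Slc7a5 (4.62 ± 1.46 in KO, 3.28 ± 0.181 in WT) and Slc7a1 (4.06 ± 0.206 in KO, 3.66 ± 0.561 in WT) overlapped each other, and Slc7a2 (1.20 ± 0.501 in KO, 1.36 ± 0.146 in WT) lay below them.

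**Figure D1:**
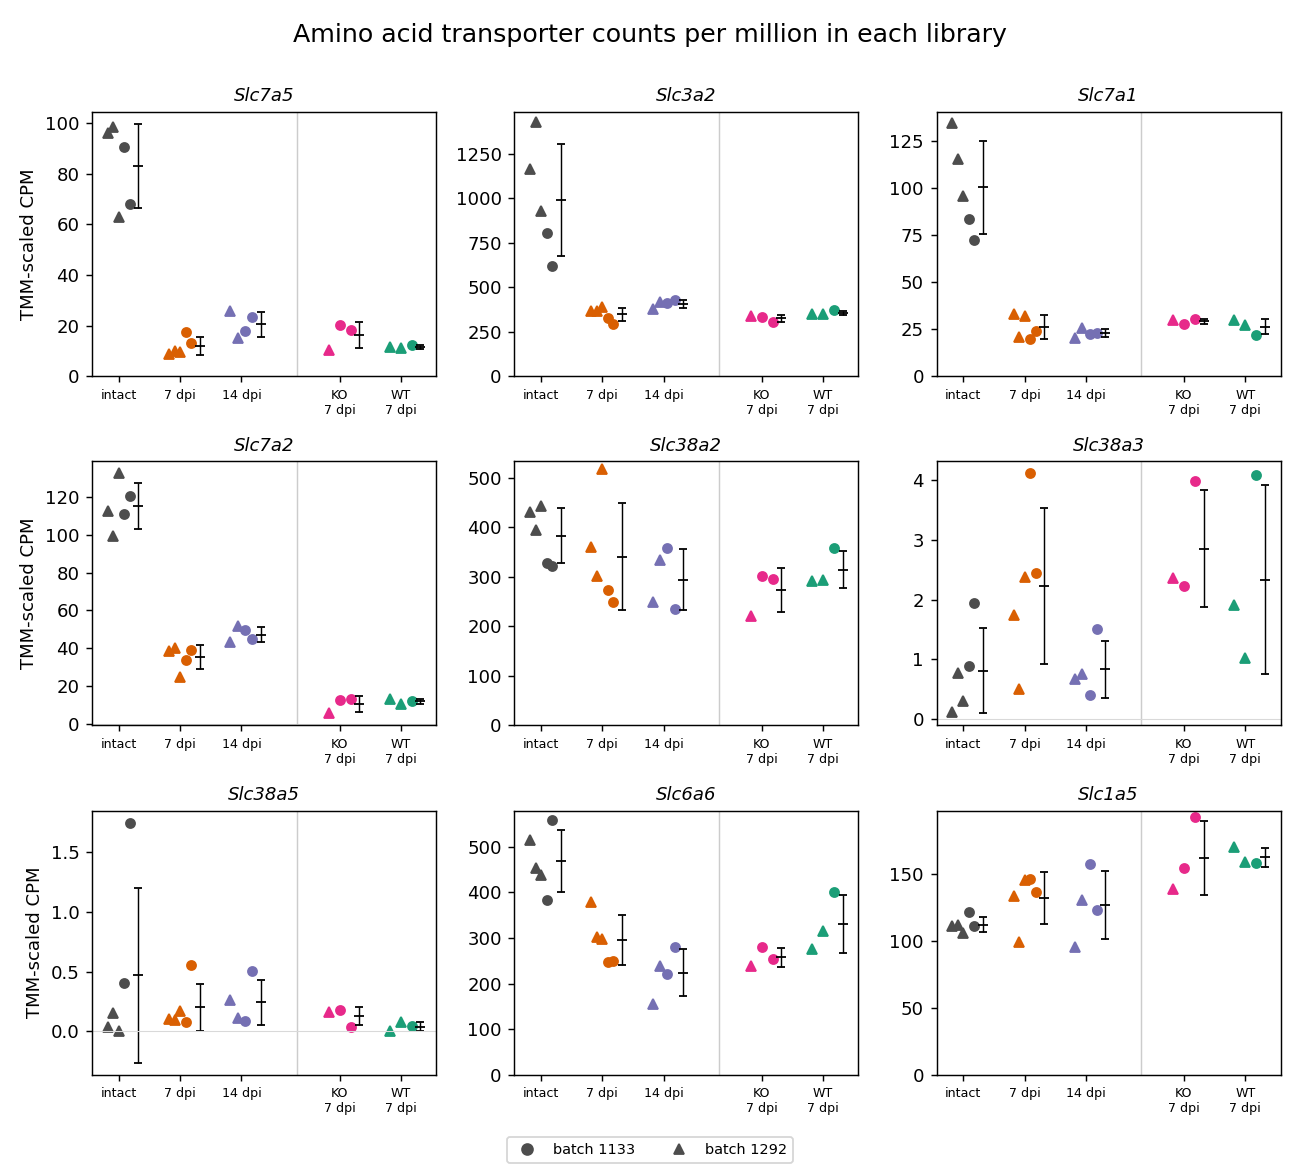
TMM-scaled CPM (y axis, linear, one scale per gene) of the 9 transporters in each of 20 libraries, by group on the x axis, with the Tomato groups left and the Cherry groups right of the grey line. Circles are batch 1133 and triangles batch 1292, and bars are mean and SD. In the panels of Slc7a5, Slc3a2, Slc7a1, Slc7a2 and Slc6a6, every library at 7 or 14 dpi lies below every intact library. The share of all genes without overlap between these groups was not computed.

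At 7 dpi, the comparison with intact nerve asks which transporters differ in RNA of cells sorted from a fresh lesion. The LAT1 pair and both arginine carriers were lower, from 2.80-fold for the heavy chain Slc3a2 to 7.18-fold for the light chain Slc7a5, and the taurine carrier Slc6a6 was 1.59-fold lower. Slc38a3 was higher at a level of a few CPM. Of the 9 genes, 8 had enough counts to be tested (Slc38a5 did not), and 5 were called lower, 1 higher and 2 neither. Among all 20409 genes tested, 16.3% were called lower, 15.7% higher and 32.0% in either direction at this threshold, an adjusted p under 0.05 (edgeR). The median log2 fold change was -1.08 over the 8 genes and -0.10 over all genes tested. The share of all genes whose libraries do not overlap between Tomato groups was not computed, so overlap is given as a description.

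Slc7a5 (chromosome 8, 121881150-121907694, GRCm38, minus strand) had 8.79, 9.98, 9.45, 17.4 and 13.3 CPM at 7 dpi, against 96.2, 98.3, 62.7, 90.6 and 68.2 CPM in intact nerve. The highest 7 dpi library lay more than 3-fold under the lowest intact one. This is a log2 fold change of -2.84 ± 0.21 (SE; edgeR adjusted p = 4.89e-08), with -2.36 in batch 1133 and -3.18 in batch 1292. Slc3a2 (chromosome 19, 8706882-8723369, minus strand), its heavy chain, had 365, 366, 386, 324 and 295 CPM at 7 dpi, against 1163, 1427, 928, 804 and 619 CPM in intact nerve. The groups did not overlap, although the intact libraries themselves ranged more than 2-fold. Its log2 fold change was -1.49 ± 0.16 (edgeR adjusted p = 3.11e-06), with -1.19 in batch 1133 and -1.64 in batch 1292. The light chain therefore differed more than the heavy chain in every fit run.

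Within each library, the ratio of Slc7a5 to Slc3a2, both per base of exon, was 0.0207, 0.0234, 0.0210, 0.0462 and 0.0387 at 7 dpi, against 0.0710, 0.0592, 0.0581, 0.0969 and 0.0946 in intact nerve. The groups did not overlap. The log2 difference was -1.39, with -1.18 in batch 1133 and -1.53 in batch 1292. A two-sided exact permutation test gave p = 0.00794 (n = 5 each), the smallest this design allows, and 0.0424 after adjustment over the 8 ratio tests made. Both ratios tested were chosen after the values had been seen, so their p-values describe these libraries only. In each of these groups the libraries of batch 1133 had the higher ratios.

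Both carriers of cationic amino acids were also lower. Slc7a1 (chromosome 5, 148327410-148399904, minus strand), the more widely expressed of the pair, had 33.2, 20.8, 32.1, 19.6 and 23.8 CPM at 7 dpi, against 135, 115, 96.1, 83.7 and 72.3 CPM in intact nerve. Its log2 fold change was -1.95 ± 0.16 (edgeR adjusted p = 1.46e-07), with -1.82 in batch 1133 and -2.0 in batch 1292. Slc7a2 (chromosome 8, 40862396-40922308, plus strand) had 38.6, 39.9, 24.6, 33.8 and 38.9 CPM at 7 dpi, against 113, 99.6, 132, 111 and 121 CPM in intact nerve. Neither gene had overlapping groups. The log2 fold change of Slc7a2 was -1.71 ± 0.14 (edgeR adjusted p = 1.37e-07), with -1.64 in batch 1133 and -1.73 in batch 1292. Slc7a2 shares 162 exonic bases with the antisense gene Gm26584, and whether strand was used in counting is not given, so a part of its reads could belong to that gene.

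Perineurial marker genes fell in the same comparison, 8 of 8, with a median log2 fold change of -2.27. With the mean of these markers as a covariate, Slc7a5 (-3.10 ± 0.54, edgeR adjusted p = 0.00441), Slc7a1 (-2.13 ± 0.41, adjusted p = 0.00856) and Slc3a2 (-1.60 ± 0.42, adjusted p = 0.0490) were still called lower. Slc7a2 was not, at -0.86 ± 0.28 (edgeR adjusted p = 0.125). The summed perineurial markers did not overlap between the groups, at 2660 to 5480 CPM in intact nerve and 334 to 1023 CPM at 7 dpi. The covariate thus closely follows the group, and this fit cannot separate perineurial RNA from injury. The part of perineurial RNA in the levels of Slc7a5, Slc7a1, Slc3a2 and Slc7a2 was not tested. Mural markers (7 of 10 lower) and Schwann cell markers (7 of 10 lower, 1 higher) moved in the same direction, and their part in the transporter values was not tested.

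The taurine transporter Slc6a6 (chromosome 6, 91684053-91759066, plus strand) had 380.0, 302, 298, 246 and 249.8 CPM at 7 dpi, against 515, 453, 438, 383 and 559 CPM in intact nerve. The highest 7 dpi library lay just under the lowest intact one. The log2 fold change was -0.67 ± 0.17 (edgeR adjusted p = 0.00597). Taken singly, neither batch gave a call (-0.88, edgeR adjusted p = 0.133 in batch 1133; -0.51, adjusted p = 0.0559 in batch 1292), nor did the fits with the perineurial covariate (-0.46, adjusted p = 0.615) or with 4 Y-linked genes as a covariate (-0.69, adjusted p = 0.0558), whose summed level was 0 to 216 CPM at 7 dpi and 40.1 to 240 CPM in intact nerve.

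Among the glutamine carriers, the 2 abundant ones did not pass the test. Slc38a2 (chromosome 15, 96687392-96699730, minus strand), a carrier that cells are known to raise when amino acids are scarce, had 361, 302, 518, 273 and 249.8 CPM at 7 dpi and 431, 394, 443, 328 and 323 CPM in intact nerve, with groups that overlapped. Its log2 fold change was -0.18 ± 0.17 (edgeR adjusted p = 0.488), with a 95% interval of -0.55 to 0.18. Slc1a5 (chromosome 7, 16781340-16798274, plus strand) had 134, 99.2, 146, 146 and 137 CPM at 7 dpi and 111, 112, 106, 122 and 111 CPM in intact nerve. All but 1 of the 7 dpi libraries lay above the intact ones, and the log2 fold change was 0.23 ± 0.13 (edgeR adjusted p = 0.212; 95% interval -0.05 to 0.51). These intervals hold no change as large as those of Slc7a5, Slc7a1, Slc7a2 and Slc3a2.

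Slc38a3 (chromosome 9, 107650634-107668968, minus strand), the only member called higher, had 34, 10, 57, 104 and 84 counts at 7 dpi (1.74, 0.492, 2.37, 4.11 and 2.44 CPM), against 3, 15, 8, 26 and 59 counts in intact nerve (0.110, 0.775, 0.305, 0.884 and 1.94 CPM). The groups overlapped. Its log2 fold change was 1.604 ± 0.58 (edgeR adjusted p = 0.0440). Direction and call were kept in only 6 of 20 alternatives. Among the losses were each batch alone, the fit without a batch term and the omission of any of 7 single libraries. With the perineurial covariate it was -0.47 (edgeR adjusted p = 0.890). Slc38a5 (chromosome X, 8271151-8280179, plus strand) had 2, 2, 4, 2 and 19 counts at 7 dpi and 1, 3, 0, 12 and 53 counts in intact nerve. The 12, 53 and 19 counts all came from batch 1133 libraries. For such counts a floor of 3 counts corresponds to 0.0872 to 0.155 CPM in these libraries, and no difference was detectable at this depth.

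**Figure D2:**
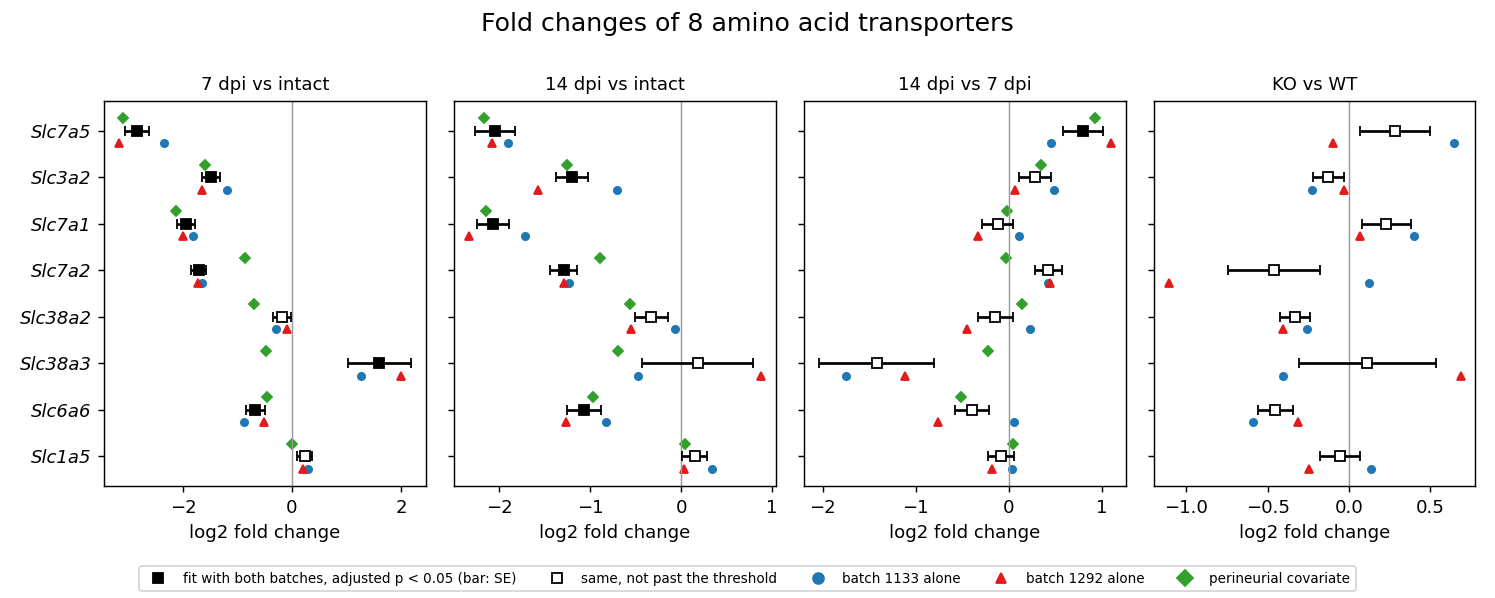
Log2 fold changes (x axis, a separate range in each panel) of the 8 tested transporters in 4 comparisons, each given above its panel as the group on top of the ratio and the one under it. Squares with SE bars are the fit with both batches, filled where the edgeR adjusted p was under 0.05; circles and triangles are each batch alone, and diamonds the fit with the perineurial marker mean as a covariate. In the first panel Slc7a5, Slc3a2 and Slc7a1 lie below -1 under all 4 fits, and Slc7a2 moves to -0.86 with the covariate.

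Because Slc7a1 and Slc3a2 moved together, the sequence before their start sites is shown, with Slc38a2, which was not called, beside them. RefSeq promoters (GRCm38.p6) were at hand for 4 of the 9 genes. In all, 6 short motifs were searched on both strands of the 250 bases before each start. They were the C/EBP-ATF site TGATGNAA, bound by ATF4, the cyclic AMP element TGACGTCA, the TCF/LEF site CTTTGATC of Wnt signalling, the E-box CACGTG, the AP-1 site TGANTCA and the antioxidant element TGACNNNGC. Matches are in capitals, 5′ to 3′ on the strand of the gene, and the last base precedes the start site.
Slc7a1, first start, chr5:148399905-148400154, minus strand: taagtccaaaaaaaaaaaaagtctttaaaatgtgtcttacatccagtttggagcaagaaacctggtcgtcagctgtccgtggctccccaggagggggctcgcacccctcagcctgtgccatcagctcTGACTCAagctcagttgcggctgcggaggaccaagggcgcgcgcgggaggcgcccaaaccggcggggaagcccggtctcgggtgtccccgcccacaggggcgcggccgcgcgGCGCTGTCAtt
Slc7a1, internal start, chr5:148392816-148393065, minus strand: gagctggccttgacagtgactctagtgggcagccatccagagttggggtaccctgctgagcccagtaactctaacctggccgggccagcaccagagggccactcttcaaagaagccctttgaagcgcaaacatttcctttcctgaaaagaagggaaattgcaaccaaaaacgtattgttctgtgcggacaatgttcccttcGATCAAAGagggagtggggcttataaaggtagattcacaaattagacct
Slc3a2, internal start, chr19:8713898-8714147, minus strand: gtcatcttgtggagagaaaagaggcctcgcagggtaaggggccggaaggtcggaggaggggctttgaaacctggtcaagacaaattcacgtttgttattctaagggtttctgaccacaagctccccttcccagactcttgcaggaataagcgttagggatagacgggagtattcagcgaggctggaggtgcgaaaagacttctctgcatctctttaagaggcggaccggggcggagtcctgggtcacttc
Slc38a2, chr15:96699729-96699978, minus strand: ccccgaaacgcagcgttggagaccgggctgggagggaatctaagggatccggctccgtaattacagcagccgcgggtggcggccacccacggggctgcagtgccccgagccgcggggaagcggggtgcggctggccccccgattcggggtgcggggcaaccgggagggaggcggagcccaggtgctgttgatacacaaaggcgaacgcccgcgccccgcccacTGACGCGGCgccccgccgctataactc
The first Slc7a1 start has TGACTCA from 123 to 117 bases upstream and, on the opposite strand, an antioxidant element match from 11 to 3 bases upstream. Its internal start has the TCF/LEF letters on the opposite strand, 49 to 42 bases upstream. Slc38a2 has TGACGCGGC at 27 to 19 bases upstream, and the Slc3a2 stretch has no match to any of the motifs. The promoter of Slc38a5, a gene too low to test and so not shown, has the E-box letters CACGTG at 30 to 25 bases upstream. Among 32851 RefSeq promoters of the same length, the AP-1 letters occurred in 6.75%, the antioxidant element in 10.2%, the TCF/LEF letters in 0.801%, the E-box in 6.02%, the C/EBP-ATF letters in 3.45% and the cyclic AMP element in 1.55%. A match describes the letters only, and counts per gene do not show which start was used.

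By 14 dpi, compared with intact nerve, the same 5 transporters were called lower and none higher. Slc7a1 was 4.19-fold and Slc7a5 4.14-fold lower, Slc7a2 2.45-fold, Slc3a2 2.30-fold and Slc6a6 2.09-fold. Over all genes tested, 5.09% were called lower, 6.86% higher and 12% in either direction (edgeR), and the median log2 fold change was -1.13 over the 8 transporters and 0.00 over all genes.

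Slc7a5 had 25.9, 15.1, 17.7 and 23.3 CPM at 14 dpi, all below the lowest intact library at 62.7 CPM (log2 fold change -2.05 ± 0.22, edgeR adjusted p = 1.43e-05; -1.90 in batch 1133 and -2.08 in batch 1292). Slc3a2 had 375, 417, 413 and 426 CPM, a narrow range below every intact library. Its log2 fold change was -1.20 ± 0.18 (edgeR adjusted p = 2.19e-04), but -0.71 (adjusted p = 0.317) in batch 1133 against -1.58 in batch 1292. The intact libraries of batch 1133 were the lower ones, at 804 and 619 CPM. Slc7a1 had 20.4, 25.8, 22.5 and 22.9 CPM (log2 fold change -2.07 ± 0.18, edgeR adjusted p = 1.89e-06; -1.72 and -2.34 in batches 1133 and 1292). No 14 dpi library held more Slc7a1 than 25.8 CPM, and no intact library less than 72.3 CPM. Slc7a2 had 43.1, 51.6, 49.5 and 44.7 CPM (-1.29 ± 0.15, edgeR adjusted p = 2.54e-05; -1.23 and -1.29 in batches 1133 and 1292).

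Slc6a6 had 155, 238, 221 and 279 CPM at 14 dpi, with no overlap with intact nerve. Its log2 fold change was -1.07 ± 0.19 (edgeR adjusted p = 9.34e-04), with -0.83 in batch 1133 (adjusted p = 0.225) and -1.27 in batch 1292. All 5 transporters were also called with the perineurial covariate, beside 6 of 8 perineurial genes called lower. In the same comparison 7 of 10 fibroblast markers were called higher. The median fibroblast sum was 30173 CPM at 14 dpi and 11189 CPM in intact nerve. The part of perineurial or fibroblast RNA in the transporter levels was not tested. The 3 tested glutamine carriers did not pass. Slc38a2 had 250.1, 334, 359 and 235 CPM (log2 fold change -0.33 ± 0.19, edgeR adjusted p = 0.321), Slc1a5 95.4, 131.2, 158 and 124 CPM (0.15 ± 0.14, adjusted p = 0.614), and Slc38a3 0.675, 0.756, 0.391 and 1.51 CPM (0.18 ± 0.61, adjusted p = 0.921). All 3 overlapped their intact levels. Slc38a5 had 5, 3, 3 and 14 counts.

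Set against 7 dpi, the 14 dpi libraries differed in 1 transporter. Slc7a5 was 1.74-fold higher (log2 fold change 0.80 ± 0.21, edgeR adjusted p = 0.0246), with 25.9, 15.1, 17.7 and 23.3 CPM at 14 dpi against 8.79, 9.98, 9.45, 17.4 and 13.3 CPM at 7 dpi. The groups overlapped, and the call was lost without any 1 of 7 dpi replicates 1, 2 and 3 or 14 dpi replicates 1 and 4 (0.58 to 0.76, edgeR adjusted p from 0.0534 to 0.112). With the perineurial covariate it was not called either, at 0.93 (edgeR adjusted p = 0.275), beside 7 of 8 perineurial genes called higher at 14 than at 7 dpi. It was 0.46 in batch 1133 (adjusted p = 0.694) and 1.10 in batch 1292. Over all genes tested, 5.73% were called higher, 4.20% lower and 9.93% either way (edgeR), so 1 of 8 is near the background.

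The other 7 did not pass. Slc7a2 lay above every 7 dpi library at 14 dpi (log2 fold change 0.42 ± 0.15, edgeR adjusted p = 0.0829; -0.03 with the perineurial covariate). Slc3a2 was at 0.28 ± 0.17 (adjusted p = 0.382), Slc7a1 at -0.12 ± 0.17 (0.773), Slc6a6 at -0.40 ± 0.19 (0.223) and Slc38a3 at -1.42 ± 0.62 (0.185). Slc38a2 (-0.15 ± 0.19, edgeR adjusted p = 0.751) and Slc1a5 (-0.08 ± 0.14, adjusted p = 0.826) had 95% intervals of -0.54 to 0.25 and -0.38 to 0.22. The comparisons of 14 dpi with 7 dpi and with intact nerve share libraries, so their values are not independent of each other.

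The ratio of the arginine carriers in whole-library RNA differed at 14 dpi. The ratio of Slc7a1 to Slc7a2, per base of exon, was 0.571, 0.602, 0.548 and 0.620 at 14 dpi, against 1.04, 0.627, 1.57, 0.700 and 0.740 at 7 dpi and 1.44, 1.40, 0.875, 0.908 and 0.722 in intact nerve. Every 14 dpi library lay below every other Tomato library. The log2 difference was -0.82 from intact nerve (-0.47 and -1.04 in batches 1133 and 1292) and -0.59 from 7 dpi (-0.30 and -0.78). Each gave p = 0.0159 in a two-sided exact permutation test (n = 4 against 5), the smallest possible, and 0.0424 adjusted over the 8 tests. The ratio was chosen after the values had been seen and the permutation left batch aside, so these p-values describe these libraries only. The highest 14 dpi ratio, 0.620, lay just under the lowest at 7 dpi, 0.627. At 7 dpi the ratio overlapped that of intact nerve (log2 difference -0.22, exact permutation p = 0.476, n = 5 each). In the Cherry libraries, normalized separately, the Slc7a1 to Slc7a2 ratio was 6.62, 2.61 and 2.77 in KO and 2.78, 3.12 and 2.23 in WT. Perineurial marker sums were 94.8 to 123 CPM in those KO and 91.9 to 135 CPM in those WT libraries, against 1322 to 2964 CPM at 14 dpi and 334 to 1023 CPM at 7 dpi in the Tomato experiment. As given above, Slc7a2 at 14 against 7 dpi was at -0.03 with the perineurial covariate. The part of perineurial RNA in the ratio was not tested.

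The ratio of Slc7a5 to Slc3a2 at 14 dpi averaged 0.0435 ± 0.0123 (SD, n = 4), against 0.0760 ± 0.0188 in intact nerve (n = 5; exact permutation p = 0.0476, adjusted 0.0952).

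**Figure D3:**
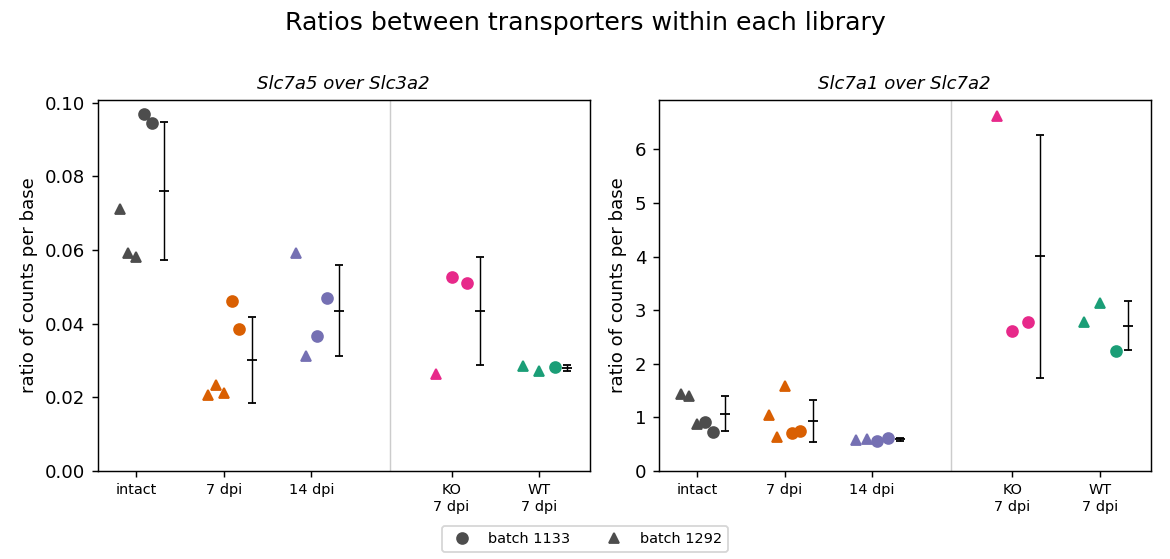
Ratio of counts per base of exon (y axis, linear, from 0) of Slc7a5 over Slc3a2 (left) and Slc7a1 over Slc7a2 (right) in each library, by group on the x axis; circles are batch 1133, triangles batch 1292, bars mean and SD. The 7 dpi libraries lie at 0.0207 to 0.0462 for Slc7a5 over Slc3a2, below the intact libraries at 0.0581 to 0.0969, and the 14 dpi libraries have the lowest Slc7a1 over Slc7a2 ratios of the Tomato groups.

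Loss of Plxnd1, a semaphorin receptor that shapes vessel growth, was examined at 7 dpi. The deleted gene itself had 131.4, 160.5 and 160.1 CPM in KO libraries, against 349.7, 324 and 343 CPM in WT libraries, a 2.34-fold lower level (edgeR adjusted p = 1.29e-04; two-sided exact permutation p = 0.1, the smallest that 3 against 3 allows). None of the 8 tested transporters was called in either direction, where 0.308% of 16227 genes were called (edgeR; 1868 genes had an unadjusted p under 0.05). The 2 transporters with the lowest p were Slc6a6 and Slc38a2, both lower in KO.

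Slc6a6 had 238, 279 and 254 CPM in KO libraries, against 276, 315 and 402 CPM in WT libraries. The ranges overlapped. The log2 fold change was -0.45 ± 0.11 (edgeR adjusted p = 0.148; 95% interval -0.68 to -0.22), with -0.59 in batch 1133 and -0.31 in batch 1292. Batch 1133 holds only replicate 3 of WT, and batch 1292 only replicate 1 of KO. Each within-batch value of KO against WT therefore rests on a lone library of 1 group. Slc38a2 had 222, 303 and 296 CPM in KO libraries, against 293, 294 and 359 CPM in WT libraries (-0.33 ± 0.09, edgeR adjusted p = 0.216). Slc6a6 was called with DESeq2 (-0.44, adjusted p = 0.0151), with no filter on low counts (-0.47, edgeR adjusted p = 0.0179) and on the counts that the authors corrected for batch (-0.47, edgeR adjusted p = 0.0289), and Slc38a2 was called on the corrected counts (-0.33, edgeR adjusted p = 0.0285). These fits reuse the same libraries and called more genes in all than the 50 of the main fit, up to 550 on the corrected counts. The corrected counts were fitted without a batch term.

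The LAT1 pair had no call. Slc7a5 had 10.5, 20.2 and 18.1 CPM in KO libraries, against 11.4, 10.96 and 12.2 CPM in WT libraries (log2 fold change 0.28 ± 0.21, edgeR adjusted p = 0.635), and the difference was 0.65 in batch 1133 and -0.10 in batch 1292. Slc3a2 had 341, 329.9 and 304 CPM in KO libraries, all below the 346, 348 and 371 CPM of WT libraries, but by -0.13 ± 0.10 only (adjusted p = 0.637). Its 95% interval, -0.34 to 0.08, holds no change as large as that at 7 dpi against intact nerve. Slc7a1 had 29.8, 27.5 and 30.3 CPM in KO and 29.9, 27.0 and 21.9 CPM in WT libraries (0.23 ± 0.15, edgeR adjusted p = 0.572). For Slc7a2 the KO libraries had 5.43, 12.7 and 13.2 CPM and the WT libraries 12.96, 10.4 and 11.9 CPM (-0.46 ± 0.28, edgeR adjusted p = 0.555). The KO library of batch 1292 was the low one, and without it the value was 0.13. Slc1a5 had 139, 155 and 193 CPM in KO and 171, 159 and 158 CPM in WT libraries (-0.05 ± 0.12, edgeR adjusted p = 0.907), and Slc38a3 had 2.36, 2.22 and 3.98 CPM in KO and 1.91, 1.01 and 4.09 CPM in WT libraries (0.12 ± 0.42, adjusted p = 0.947). Slc38a5 had 3, 6 and 1 counts in KO and 0, 2 and 1 in WT libraries, too few for a comparison.

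Set side by side, the 7 dpi bridge cells of WT Cherry and Tomato libraries did not overlap in Slc7a2, Slc1a5 and Slc38a5. The share of all genes that do not overlap between these groups was not computed, so this is no result about the transporters. Slc7a2 was at 10.4 to 12.96 CPM in WT Cherry libraries and at 24.6 to 39.9 CPM in 7 dpi Tomato libraries. Slc1a5 was at 158 to 171 CPM in WT Cherry and 99.2 to 146 CPM in Tomato libraries, and Slc38a5, near the floor, at 0 to 0.0751 CPM and 0.0791 to 0.552 CPM. Slc3a2 was at 346 to 371 CPM and 295 to 386 CPM in the same groups, and Slc7a1 at 21.9 to 29.9 CPM and 19.6 to 33.2 CPM. The experiments differ in reporter and were normalized separately, so these levels are a description. Perineurial marker sums were 91.9 to 135 CPM in the WT Cherry libraries and 334 to 1023 CPM in the 7 dpi Tomato libraries.

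Other amino acid transporters, 25 genes of which 23 were tested in the Tomato experiment, moved in both directions. At 7 dpi 8 were called higher and 3 lower than in intact nerve, with a median log2 fold change of -0.05, where 15.7% of all genes were called higher and 16.3% lower. Slc7a6, another light chain that pairs with Slc3a2 and carries cationic and neutral amino acids, was higher (1.45 ± 0.19, edgeR adjusted p = 1.35e-05), as were the glutamine carrier Slc38a1 (2.79 ± 0.46, adjusted p = 1.74e-04) and the neutral amino acid exchanger Slc1a4 (1.03 ± 0.22, adjusted p = 0.00153). The GABA and taurine carrier Slc6a13 (-3.38 ± 0.35), the arginine carrier Slc7a3 (-2.95 ± 0.70) and the glycine carrier Slc6a9 (-0.98 ± 0.25) were lower. At 14 dpi 3 were higher and 2 lower than in intact nerve, where 6.86% of all genes were called higher and 5.09% lower. The higher ones were Slc7a6 (0.95 ± 0.19), Slc1a4 (0.79 ± 0.23) and Slc7a8 (2.05 ± 0.60), the LAT2 light chain that also pairs with Slc3a2, and the lower ones Slc6a13 (-1.59 ± 0.35) and Slc38a4 (-0.97 ± 0.29). From 7 to 14 dpi, Slc6a13 rose (1.79 ± 0.34) and Slc38a4 (-1.26 ± 0.29) and Slc38a1 (-1.79 ± 0.47) fell. Of all genes, 5.73% were called higher and 4.20% lower there. Perineurial markers were likewise lower at 7 dpi (8 of 8) and higher at 14 than at 7 dpi (7 of 8). In Cherry libraries Slc6a13 was at 0.110, 0 and 0.265 CPM (KO) and 0, 0 and 0.327 CPM (WT). The part of perineurial RNA in its values was not tested. Slc7a3 was low, averaging a log2 CPM of 0.5 in Tomato libraries, with 0 to 0.858 CPM in Cherry libraries. None of 18 tested was called in KO against WT (edgeR), where 0.308% of all genes were called.

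Non-amino-acid barrier genes, 20 in number, were called lower in 16 cases and higher in 1 at 7 dpi (median log2 fold change -2.32). At 14 dpi 15 were lower and 1 higher than in intact nerve (median -1.48). Over all genes tested, 16.3% were called lower and 15.7% higher at 7 dpi, and 5.09% lower and 6.86% higher at 14 dpi. Spock2, an extracellular proteoglycan (-4.34 ± 0.21 at 7 dpi), the drug efflux pump Abcb1a (-2.32 ± 0.12) and the organic anion carrier Slco1a4 (-5.53 ± 0.37) had the smallest p. Between 14 and 7 dpi, 13 of these 20 were higher at 14 dpi and 1 was lower, with Spock2 at 1.73 ± 0.20, the tight junction gene Ocln at 1.99 ± 0.23 and Abcb1a at 0.97 ± 0.12, whereas 1 of the 8 transporters was higher. Over all genes tested, 5.73% were called higher and 4.20% lower at 14 than at 7 dpi. The difference between the 2 lists was not tested. Perineurial markers moved the same way as the other barrier genes, with 8 of 8 lower at 7 dpi and 6 of 8 lower at 14 dpi than in intact nerve, and 7 of 8 higher at 14 than at 7 dpi. Their part in the barrier values was not tested.

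Genes for taurine and other osmolytes, 7 in number beside Slc6a6, moved in both directions. At 7 dpi 4 were called lower and 1 higher, where 16.3% of all genes were called lower and 15.7% higher. The taurine-forming enzymes Ado (0.18 ± 0.17, edgeR adjusted p = 0.484) and Csad (0.14 ± 0.13, adjusted p = 0.444) were not called. Cdo1, the cysteine dioxygenase on the route to taurine, changed by -3.70 ± 0.22 (edgeR adjusted p = 3.31e-09), the betaine carrier Slc6a12 by -3.58 ± 0.35, the inositol carrier Slc5a3 by -1.34 ± 0.20 and the aldose reductase Akr1b3 by 0.42 ± 0.13. At 14 dpi 4 were lower than in intact nerve, with Cdo1 at -2.07 ± 0.22, where 5.09% of all genes were called lower. Ado (0.33 ± 0.18, edgeR adjusted p = 0.288) and Csad (0.40 ± 0.13, adjusted p = 0.0608) were not called there either. From 7 to 14 dpi Cdo1 (1.64 ± 0.21) and Slc6a12 (1.71 ± 0.35) rose, where 5.73% of all genes were called higher. The perineurial markers moved likewise, 8 of 8 lower at 7 dpi than in intact nerve and 7 of 8 higher at 14 than at 7 dpi. In the Cherry libraries, where perineurial marker sums were low, Cdo1 was highest at 1.26 CPM in KO and 1.80 CPM in WT libraries, and Slc6a12 at 0.329, 0 and 0.152 CPM in KO and 0.117, 0 and 0.164 CPM in WT libraries. The part of perineurial RNA in these values was not tested.

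Of 11 enzymes that make or use arginine, 4 were called at 7 dpi, a share near the 32.0% of all genes tested. Of these, 3 were higher, the spermidine synthase Srm (1.27 ± 0.15), the endothelial nitric oxide synthase Nos3 (1.11 ± 0.19) and the arginase Arg1 (2.08 ± 0.36), and 1 was lower, the arginine-forming enzyme Ass1 (-0.95 ± 0.14). Macrophages also express Arg1. The summed level of 10 macrophage markers was 12.6 to 359 CPM at 7 dpi and 17.4 to 22.6 CPM in intact nerve. Of 10 fibroblast markers, 5 were called higher and 1 lower at 7 dpi. Arg1 was at 11.7 to 64.5 CPM in 7 dpi Tomato libraries. In Cherry libraries, also from the 7 dpi bridge but normalized separately, Arg1 was highest at 0.607 CPM in KO and 1.48 CPM in WT libraries. Fibroblast marker sums were 4464 to 19954 CPM in 7 dpi Tomato and 850.0 to 3306 CPM in Cherry libraries. The part of macrophage or fibroblast RNA in the Arg1 value was not tested. At 14 dpi against intact nerve Ass1 (-1.57 ± 0.16) and Ddah1 (-0.97 ± 0.16), which clears inhibitors of nitric oxide synthase, were lower and none was higher. Of all genes tested, 5.09% were called lower and 6.86% higher in that comparison. Of 12 genes of glutamine use, the pyrimidine synthesis enzyme Cad (0.68 ± 0.16) and the glutamate dehydrogenase Glud1 (0.47 ± 0.14) were higher at 7 dpi and the glutamine synthetase Glul (-0.99 ± 0.21) was lower, 3 in all where 32.0% of all genes were called. Glul (-1.02 ± 0.23) and the CTP synthase Ctps (-0.53 ± 0.14) were lower at 14 dpi than in intact nerve. There, too, 5.09% of all genes were called lower.

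Amino acid shortage is known to raise transporter genes through the transcription factor ATF4, and leucine is sensed through the mTORC1 pathway. Of 22 ATF4-linked genes, 7 were higher and 6 lower at 7 dpi (median log2 fold change -0.02), where 15.7% of all genes were called higher and 16.3% lower. The translation repressor Eif4ebp1 (1.67 ± 0.15), the serine synthesis enzyme Psat1 (1.73 ± 0.18) and the folate enzyme Mthfd2 (2.16 ± 0.23) were higher, and the glutathione-degrading enzyme Chac1 (-2.26 ± 0.34), the stress factor Ddit3 (-1.06 ± 0.16) and the lipoprotein receptor Vldlr (-1.10 ± 0.19) lower. At 14 dpi 7 were higher and 2 lower than in intact nerve, where 6.86% of all genes were called higher and 5.09% lower. Among them were the proline synthesis enzymes Pycr1 (2.07 ± 0.32) and Aldh18a1 (1.19 ± 0.20), and Chac1 (-1.97 ± 0.36). Fibroblast markers, 7 of 10 of them called higher, moved in the same comparison, and their part in these values was not tested. Of 20 cytosolic tRNA synthetases, which load amino acids for translation, 14 were higher and none lower at 7 dpi (median 0.47). The smallest p were those of Gars (1.04 ± 0.14), Vars (0.91 ± 0.14) and Rars (0.63 ± 0.13), beside 10 of 10 cell division genes whose summed level was 895 to 1114 CPM at 7 dpi and 48.9 to 68.4 CPM in intact nerve. None was called at 14 dpi against intact nerve (edgeR), and 4 were lower at 14 than at 7 dpi. Of 25 genes of mTORC1 amino acid sensing, 2 were higher and 4 lower at 7 dpi (32.0% of all genes were called), with the leucine sensor family member Sesn1 at -1.82 ± 0.19 (edgeR adjusted p = 1.31e-06), and 1, Castor2 (-0.60 ± 0.17), was lower at 14 dpi than in intact nerve. Of all genes, 5.09% were called lower at 14 dpi than in intact nerve. Sesn1 was higher at 14 than at 7 dpi (1.21 ± 0.19), where 5.73% of all genes were called higher. Perineurial markers were likewise lower at 7 dpi (8 of 8) and higher at 14 than at 7 dpi (7 of 8). Sesn1 averaged a log2 CPM of 6.79 over the Tomato libraries. In Cherry libraries it was at 19.6, 20.1 and 13.8 CPM (KO) and 25.0, 23.4 and 24.3 CPM (WT). The part of perineurial RNA in the Sesn1 values was not tested.

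**Figure D4:**
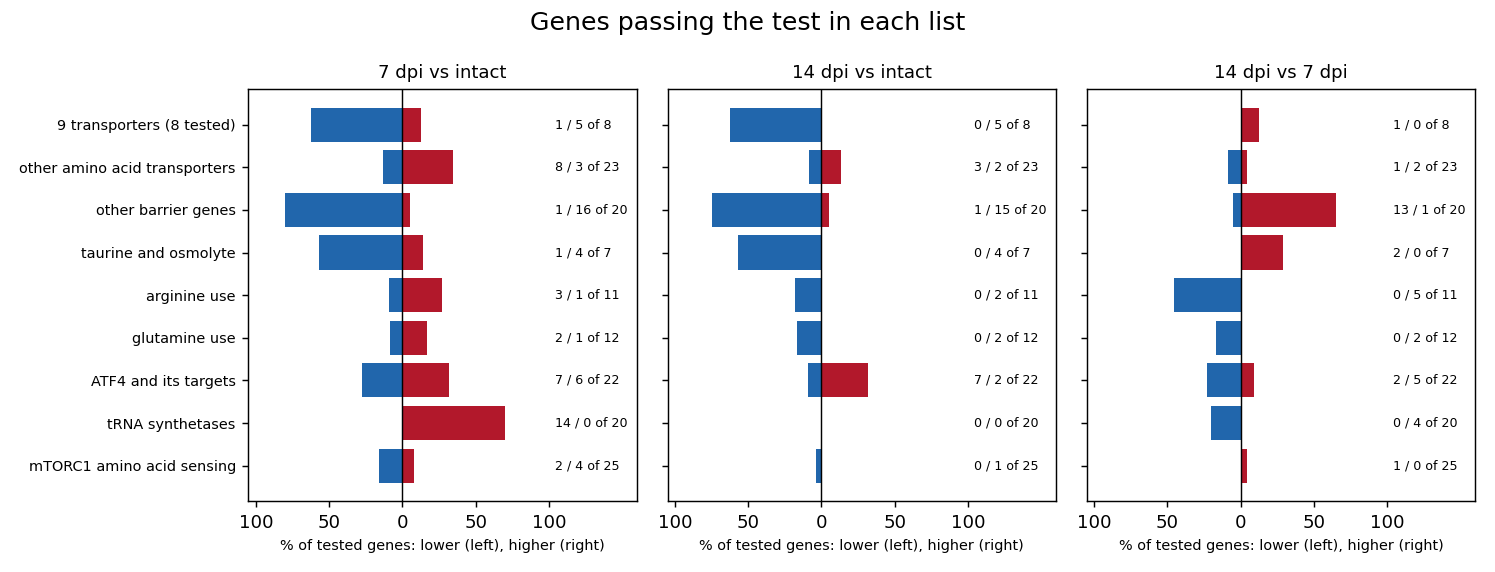
Percent of the tested genes of each list (x axis) that were called lower (blue, to the left) or higher (red, to the right) by edgeR in 3 comparisons of the Tomato experiment; the numbers at the right are higher / lower of tested. At 7 dpi 5 of the 8 tested transporters and 16 of 20 other barrier genes were lower, while 14 of 20 tRNA synthetases were higher.

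Across the 14 Tomato libraries, log2 levels of Slc7a5, Slc3a2, Slc7a1 and Slc7a2 ran together, with Pearson r of 0.87 to 0.95 between pairs. These libraries share their groups and batches, so the r describes mostly the difference between groups. By the same measure among 10008 genes, Slc7a5 was most like Osgin1 (r = 0.959) and Gstm7 (0.955), Slc3a2 like Pdgfc (0.962) and Sgms1 (0.962), Slc7a1 like Aqp11 (0.958) and Atp10a (0.955), and Slc7a2 like Zfp185 (0.987) and Cyfip2 (0.985). Slc6a6 was most like Thsd4 (0.898) and Sqle (0.886), Slc38a2 like Ubr2 (0.940) and Lrrc58 (0.924), Slc1a5 like Parp8 (0.906) and Ctdp1 (0.886), and Slc38a3 like Prr5 (0.782) and Vac14 (0.780).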

How the data were processed

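RNA of 20 libraries of sorted endothelial cells was measured by bulk sequencing. The authors deposited unnormalized whole-number counts of reads per gene, 1 table for each experiment, and a ComBat-Seq batch-corrected version of the Cherry counts. The deposited tables also give each gene's exon length, which was used to divide CPM. Per the submitters' processing notes, Trimmomatic 0.39, STAR 2.5.3a, featureCounts 1.6.4 and Cell Ranger 3.0.2 were used with build mm10 (GRCm38). Neither the annotation release nor the strand setting nor the handling of multi-mapping reads is given in the sources used here. Reads shared between overlapping genes could therefore be split or lost. Coordinates are those of the tables. In the GENCODE M21 annotation all 9 genes are protein-coding and 7 have the same span.

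Counts were tested as deposited with edgeR 4.0.16 (R 4.3.3), after filterByExpr and TMM scaling, by its robust quasi-likelihood test with batch as a covariate. The 14 Tomato libraries had 1 fit and the 6 Cherry libraries another. A gene was called at a Benjamini-Hochberg adjusted p under 0.05 over all genes tested. Fold changes are log2, and the SE is approximated from the fold change and its F value. The 95% intervals use the degrees of freedom of the fit. For ratios and for Plxnd1, log2 values were compared by exact two-sided permutation. The labels give a batch, 1133 or 1292, without saying what it is, and both batches hold every group. Replicates were not duplicates, since 32 pairs had a chi-square per degree of freedom of 15.4 to 121.0. On simulated counts with 2-fold changes, the fit of 7 dpi against intact recovered 71% (19505 genes) and that of KO against WT 72% (15681 genes). A floor of 3 counts covers counting error only.

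The 9 genes and 18 gene lists were chosen with earlier results of these data known. Named genes are all 9, at most 3 called genes of each list per direction and comparison by p, and the 2 genes most like each of the 9 by Pearson r. The uncalled Ado and Csad are named besides. Alternatives were other scalings, DESeq2 1.42.0, no filter, no batch term, each batch alone, each library left out, only the groups compared, a perineurial covariate and the corrected Cherry counts. A Y-gene covariate was added after the data were seen.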

Additional observations from a re-analysis of the deposited data

Results flagged for a closer look

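Each of the 9 genes was examined in the 3 groups of 4 or 5 libraries, on log2(CPM + 1). In 2 of these 27 cases 1 library stood far from the others, and chance gives about 1 in 20. Slc38a5 was at 0.552 CPM in 7 dpi replicate 5, where the next library had 0.167 CPM, so that the gap made up 0.786 of the range of the group. Slc1a5 was at 99.2 CPM in 7 dpi replicate 2, where the next library had 134 CPM, a gap of 0.765 of the range.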

How the results depend on the processing

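No paired analysis was possible because no label gives libraries of different groups a shared replicate number. Titles hold running numbers, and no label says what they mark. Over the 32 transporter tests and 584 alternative values, 530 kept direction and call, 27 lost the call, 4 gained it and 23 changed sign. Slc7a5, Slc3a2 and Slc7a1 at 7 dpi against intact kept direction and call under all 20 alternatives each, as did Slc7a5, Slc7a1 and Slc7a2 at 14 dpi against intact under all 19. The cause of the differences below was not tested, except that each batch alone and each omission hold fewer libraries.

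The number of transporters called at 7 dpi against intact was 3 with the perineurial covariate, against 6. At 14 dpi against intact it was 3 in batch 1133 alone, against 5. Between 14 and 7 dpi it was 0 in batch 1133 alone and with the perineurial covariate, and 0 to 1 with single libraries left out, against 1. In KO against WT it was 1 with DESeq2, 1 with no filter and 2 on the corrected counts, against 0.

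All genes called at 7 dpi against intact numbered 6535, and 2042 in batch 1133 alone, 611 with the perineurial covariate and 4019 with the Y-gene covariate. At 14 dpi against intact they numbered 2439, and 795 in batch 1133 alone, 1500 in batch 1292 alone and 1045 with the perineurial covariate. Between 14 and 7 dpi they numbered 2027, and 3255 with DESeq2, 1226 without a batch term, 366 and 726 in batches 1133 and 1292 alone, 150 with the perineurial covariate and 1305 to 1901 with single libraries left out (lowest without 14 dpi replicate 2). For KO against WT they numbered 50, and 241 with DESeq2, 230 with no filter, 5 without a batch term, 31 in batch 1292 alone, 550 on the corrected counts, 5 with the Y-gene covariate and 6 to 40 with single libraries left out (25 without WT replicate 1, 9 without KO replicate 1, 11 without WT replicate 3 and 6 without KO replicate 3). Of those called in KO, 42.0% were higher, and 30.8% with library size as the only scaling.

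Sign changes, all but the first of log2 fold changes that had not been called, were as follows. With the perineurial covariate, Slc38a3 was at -0.47 at 7 dpi and -0.69 at 14 dpi against intact, and between 14 and 7 dpi Slc7a2 was at -0.028, Slc38a2 at 0.14 and Slc1a5 at 0.045. In batch 1133 alone, Slc38a3 was at -0.48 at 14 dpi against intact. Between 14 and 7 dpi in that batch Slc7a1 was at 0.11, Slc38a2 at 0.22, Slc6a6 at 0.052 and Slc1a5 at 0.034. In KO against WT in that batch Slc7a2 was at 0.13, Slc38a3 at -0.40 and Slc1a5 at 0.14. In batch 1292 alone Slc7a5 was at -0.10 in KO against WT, and with the Y-gene covariate Slc38a3 was at -0.96. With single libraries left out, Slc38a3 at 14 dpi against intact ran from -0.094 to 0.57. Between 14 and 7 dpi Slc38a2 ran from -0.34 to 0.004 and Slc1a5 from -0.18 to 0.01. In KO against WT, Slc7a5 ran from -0.10 to 0.65, Slc7a2 from -1.11 to 0.13, Slc38a3 from -0.40 to 0.69 and Slc1a5 from -0.25 to 0.14.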
